A study of Mus musculus with 6 samples.

Results

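WNT ligands, receptors and feedback genes were followed in FLK1+ mesoderm from mouse embryoid bodies (EBs) with and without Scl. The members were all rows of the expression table whose symbol names a Wnt ligand, a factor for ligand secretion (Porcn, Wls), a Frizzled (Fzd) receptor or Lrp5/6 co-receptor, a secreted or membrane inhibitor (Sfrp, Dkk, Kremen, Notum, Wif1), a component of the R-spondin axis (Rspo, Lgr4 to Lgr6, Znrf3, Rnf43), an intracellular component (Ctnnb1, Apc, Gsk3a/b, Dvl, Axin, Nkd) or a TCF/LEF factor. This rule uses no measured value and gave 49 genes of the 14005 listed, and all 49 passed the filter on low values. RNA-seq was available from 6 libraries. Of these, 3 came from J1 wild-type ES cells (WT) and 3 from an Scl-/- ES line, each taken through EB culture to day 3.5. In both groups FLK1+ cells had been isolated on magnetic columns. Scl (Tal1) encodes the basic helix-loop-helix factor needed for blood formation, and FLK1 (Kdr) is the VEGF receptor carried by mesoderm that can form blood and endothelium. Each genotype was represented by a single ES line, so the genotype cannot be told apart from other differences between the lines. The strain was labelled C57Bl/6 X Sv129 for WT replicates 1 and 2 and Scl-/- replicate 1, and Sv130, Sv131 and Sv132 for Scl-/- replicate 2, WT replicate 3 and Scl-/- replicate 3. With a single ES line per genotype, these labels were not taken as differences in strain between replicates.

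WNT proteins are secreted lipid-modified ligands that bind Frizzled receptors and LRP5/6 co-receptors. Binding stabilises β-catenin (Ctnnb1), which enters the nucleus and activates target genes with TCF/LEF factors. Several targets, among them Axin2, Nkd1, Notum, Znrf3 and Rnf43, feed back to dampen the signal, whereas R-spondins and their LGR receptors raise it by removing Znrf3 and Rnf43 from the membrane. In the gastrulating embryo Wnt3 is needed to form the primitive streak, where mesoderm arises, and the pathway sustains the streak gene Brachyury (T).

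Per library, 38623641 to 47621120 reads lay on listed genes, so that 3 reads corresponded to at most 0.0784 CPM. Tal1 itself stood at 303, 182 and 306 CPM in the 3 WT libraries and at 9.35, 5.68 and 5.87 CPM in the Scl-/- libraries. Of the markers of FLK1+ mesoderm, all 8 were present, with a summed level of 1854 to 2228 CPM in WT and 2197 to 3047 CPM in Scl-/- libraries. This sum joins opposite directions. From WT to Scl-/- cells the mean of Kdr went from 856 to 770 CPM and that of Aplnr from 253 to 175 CPM. Etv2, Mixl1, Pdgfra, Mesp1, Eomes and T had higher means in Scl-/- cells. Blood and endothelial markers (6 of 7 analysed) summed to 99.0 to 246 CPM in WT and to 12.5 to 45.8 CPM in Scl-/- libraries, where Hbb-bh1 was at 0 in all 3. The 5 pluripotency markers summed to 88.5 to 153 and 88.3 to 228 CPM and the 2 neurectodermal markers (Otx2 and Pax6) to 17.7 to 42.3 and 20.004 to 61.6 CPM in WT and Scl-/- libraries respectively. Of the endodermal markers 2 were analysed, and their means differed in opposite directions, Sox17, which endothelium also expresses, from a mean of 14.4 CPM in WT to 3.16 CPM in Scl-/- cells and Cer1 from 0.781 to 1.80 CPM. The part of these markers in the WNT differences was not tested, and in such bulk samples fewer cells of a type and less RNA per cell cannot be told apart. The log2 fold changes of tested genes had a median of 0.31 on chromosome 11, of -0.29 on chromosome 1 and of 0.0037 on the other chromosomes, and the WNT genes of these 2 chromosomes are therefore also given relative to their neighbours.

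In Scl-/- cells the R-spondin receptor Lgr5 was 8.42-fold lower and the feedback gene Axin2 was 2.27-fold higher in mean CPM. These were the 2 members that passed an adjusted p of 0.05 and an absolute log2 fold change of 0.48 with genotype as the only term (limma, Benjamini-Hochberg), 1 in each direction, against 2.36% of the 13991 genes tested (0.793% higher and 1.57% lower). Axin2 lies among chromosome 11 genes with differences of similar size, and relative to its 20 nearest tested genes it was not called in either fit (0.31, adjusted p = 0.425 unpaired and 0.0339 paired). The design describes 3 independent differentiations, and libraries of both genotypes that carry the same number varied alike. When the replicate number entered the fit as a block, hereafter the paired fit, 13 members passed, of which 8 were higher and 5 lower in Scl-/- cells. The paired fit passed 12.6% of all genes, 6.04% as higher and 6.6% as lower. The higher members were the ligands Wnt3, Wnt5a, Wnt2b and Wnt9b, the receptor Fzd2, the feedback genes Axin2 and Nkd2, and the transcription factor Lef1. The lower members were Lgr5, the receptors Fzd10 and Fzd5, and the ligands Wnt4 and Wnt6. Intracellular transducers, secreted inhibitors and the secretion machinery held none. The median log2 fold change over the 49 members was 0.06, against 0.009 for all genes. Non-overlapping groups were seen for 10 members, 4 higher and 6 lower, where 21.6% of all genes did not overlap (11% higher and 10.7% lower). In 29 members all 3 pairs had the same sign, 16 higher and 13 lower, as in 56.2% of all genes (29.8% higher and 26.4% lower). A fold change here is on the scale of log2(CPM + 0.5), Scl-/- minus WT, and a call in what follows means both thresholds.

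**Figure D1:**
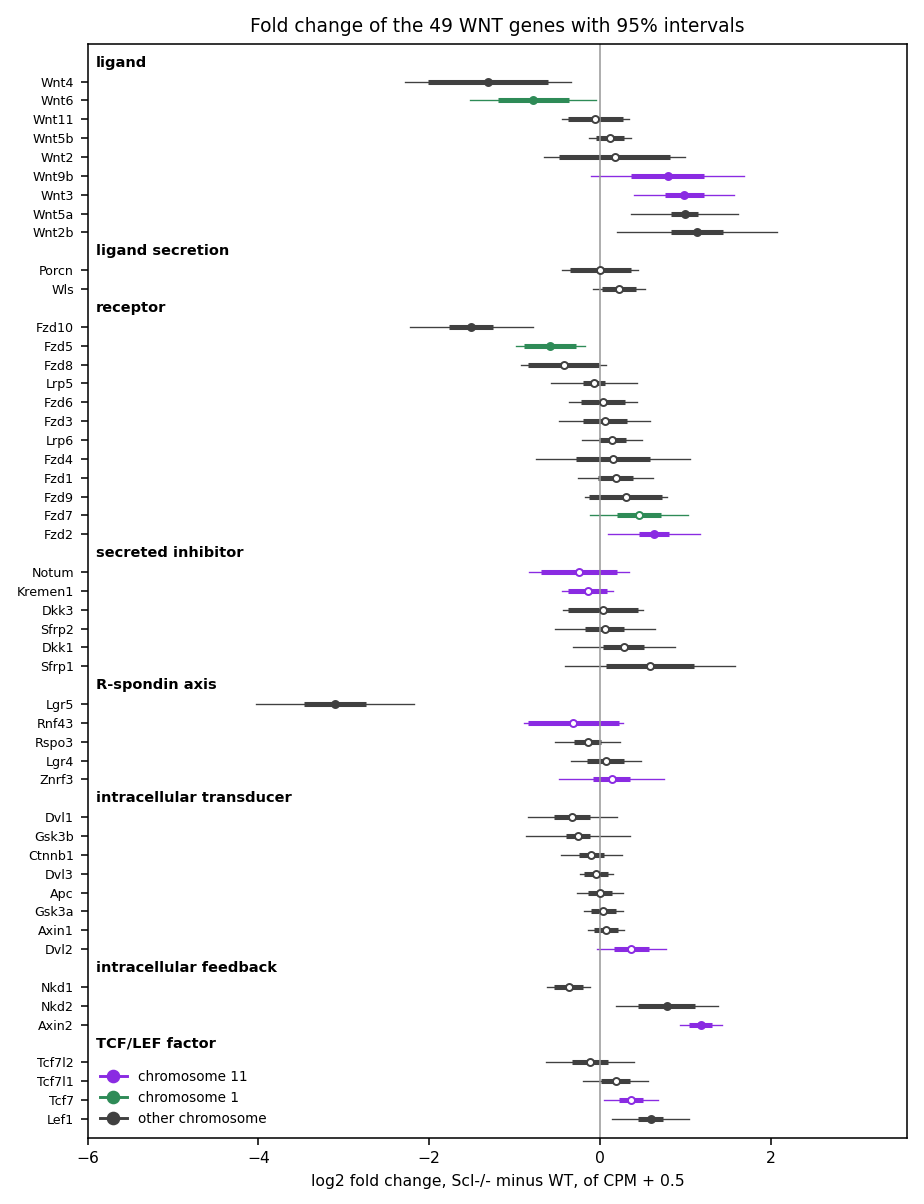
The x axis gives the log2 fold change of CPM + 0.5, Scl-/- minus WT, for each of the 49 WNT genes on the y axis, grouped by role. Thin lines are 95% intervals without and thick lines with the replicate block, and filled points are the 13 genes called in the paired fit. Lgr5 lies farthest to the left at -3.10 and Axin2 farthest to the right at 1.18.

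Among the ligands, 9 of the 19 known were analysed here. In the paired fit 6 of the 9 were called, 4 higher and 2 lower, against 12.6% of all genes (6.04% higher and 6.6% lower). After chromosome or neighbour medians were removed 4 of the 9 were called, without Wnt9b and Wnt6, against 10.7% of all genes. Without the pairing none was called. An unadjusted limma p under 0.05 was seen for 5 ligands and for 2474 of all 13991 genes. Per kilobase of exon the most abundant ligand in WT cells was Wnt5b, a non-canonical ligand, at 69.4 CPM per kb ± 8.18 (SD, n = 3). It was followed by Wnt3 at 20.2 ± 4.25, Wnt5a at 10.9 ± 3.36 and Wnt2b at 7.45 ± 3.57 CPM per kb. The WT ranges of Wnt5a and Wnt2b overlapped, so their order is not set. In Scl-/- cells Wnt5b was at 74.9 ± 1.69, Wnt3 at 41.1 ± 12, Wnt5a at 21.8 ± 7.05 and Wnt2b at 16.6 ± 7.43 CPM per kb. There the ranges of Wnt3 and Wnt5a overlapped, as did those of Wnt5a and Wnt2b, so that of this order Wnt5b alone stood apart. The summed level of the 9 ligands was 347, 430 and 387 CPM in WT and 475, 700 and 578 CPM in Scl-/- libraries, replicates 1 to 3.

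**Figure D2:**
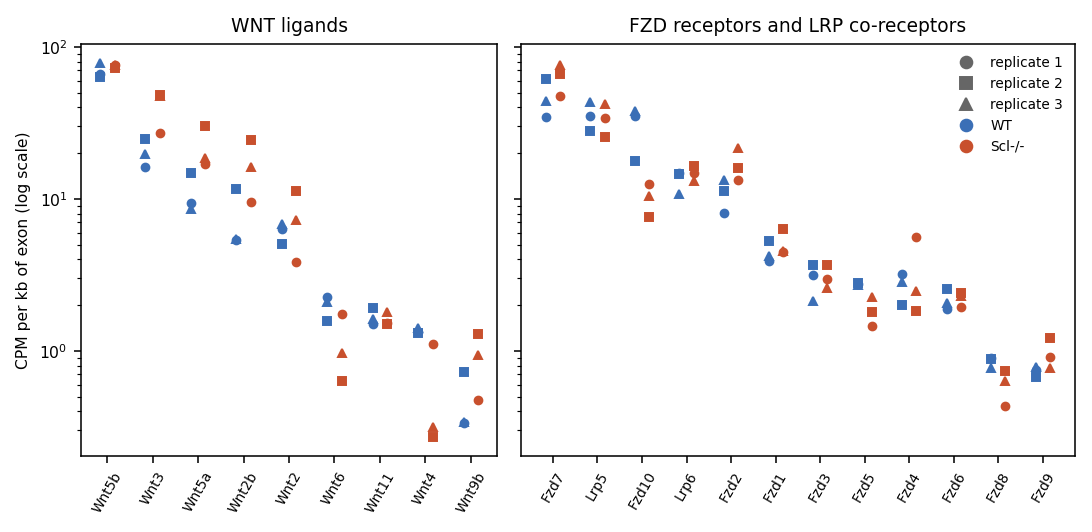
The y axis gives CPM per kilobase of exon on a log scale for every ligand (left) and receptor (right), with each library a point coloured by genotype and shaped by replicate number. Wnt5b is the highest ligand in all 6 libraries, and the Scl-/- points of Wnt3, Wnt5a and Wnt2b lie above the WT point of the same shape.

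Wnt3, the ligand of the primitive streak, was at 49.9, 75.9 and 60.8 CPM in WT libraries and at 83.7, 149 and 147 CPM in Scl-/- libraries, given here and below in the order of replicates 1 to 3. All Scl-/- libraries lay above all WT libraries. The log2 fold change was 0.99 (SE 0.25), with a limma adjusted p of 0.0991 without pairing and 0.000471 (SE 0.097) in the paired fit. Unpaired, Wnt3 was called only without Scl-/- replicate 1 (1.26, adjusted p = 0.0315). With any other library left out its limma adjusted p was 0.0825 to 0.376. Wnt5a, which acts in planar polarity and in extension of the posterior body, was at 73.7, 115 and 66.8 CPM in WT and at 133, 234 and 144 CPM in Scl-/- libraries. The groups did not overlap, replicate 2 was the highest in both, and the differences within pairs were close to one another at 0.85, 1.02 and 1.11 on the log2 scale. Its adjusted p in limma was 0.116 without pairing and 0.000101 with it. Wnt2b, a canonical ligand, showed a like pattern of replicates, with 19.2, 41.4 and 19.3 CPM in WT and 33.9, 86.9 and 57.5 CPM in Scl-/- libraries. WT replicate 2 exceeded Scl-/- replicate 1, so the groups overlapped, while each pair was higher in Scl-/- by 0.80, 1.06 and 1.55. The log2 fold change of Wnt2b was 1.14, with adjusted p of 0.201 and 0.000997 without and with pairing in limma.

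Wnt9b, a ligand known from kidney development, lies beside Wnt3 on chromosome 11 and was the least abundant ligand per length in WT cells, at 1.51, 3.27 and 1.53 CPM in WT and at 2.15, 5.87 and 4.22 CPM in Scl-/- libraries. It was higher in each pair, but the groups overlapped. The limma adjusted p was 0.346 without and 0.0183 with pairing for a log2 fold change of 0.79, and the paired call was lost when pair 2 (0.81, adjusted p = 0.109) or pair 3 (0.58, adjusted p = 0.103) was left out.

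In the opposite direction, Wnt4, known for its roles in kidney and gonad development, was at 5.54, 5.46 and 5.95 CPM in WT and at 4.63, 1.14 and 1.32 CPM in Scl-/- libraries. Scl-/- replicate 1 stood close to the WT libraries and apart from the other two, yet the groups did not overlap. The log2 fold change was -1.31 (SE 0.42 without and 0.30 with pairing), with limma adjusted p of 0.164 and 0.0176. Wnt4 lost its paired call without pair 2 (-1.03, adjusted p = 0.135) or pair 3 (-1.05, adjusted p = 0.118). In the unpaired fit it was called only without Scl-/- replicate 1 (-1.83, adjusted p = 0.012). With any other library left out its limma adjusted p was 0.219 to 0.456. Wnt6, on chromosome 1, was at 4.69, 3.27 and 4.32 CPM in WT and at 3.63, 1.31 and 2.00 CPM in Scl-/- libraries. Each pair was lower in Scl-/-, with overlap through WT replicate 2, and limma gave -0.78 with adjusted p of 0.254 without and 0.0178 with pairing. This paired call was lost without pair 2 (-0.64, adjusted p = 0.134) or pair 3 (-0.70, adjusted p = 0.102).

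The 3 ligands that were not called had log2 fold changes from -0.05 (Wnt11) to 0.17 (Wnt2). Wnt5b was at 173, 167 and 207 CPM in WT and at 199, 191 and 199 CPM in Scl-/- libraries, with a paired 95% interval of -0.05 to 0.28 on the log2 scale. Wnt2 differed in opposite directions in pairs 1 and 2 (-0.69 and 1.13). Of the secretion factors, the ligand carrier Wls was at 170, 220 and 166 CPM in WT and at 229, 218 and 197 CPM in Scl-/- libraries, with a paired interval of 0.03 to 0.42 and an adjusted p of 0.0966 in limma. Porcn, the acyltransferase that lipidates the ligands, had a log2 fold change of 0.0072 (paired 95% interval -0.35 to 0.37).

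**Figure D3:**
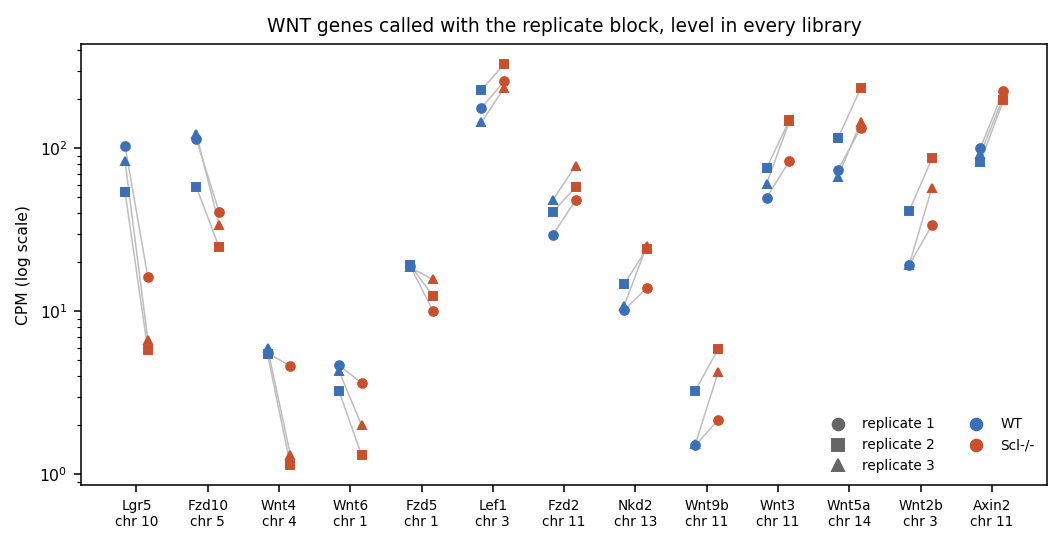
Each point is 1 library, with CPM on a log y axis for the 13 WNT genes called in the paired fit along the x axis, WT in blue and Scl-/- in red, and grey lines join libraries of the same replicate number. The lines of Lgr5 and Fzd10 fall steeply, and those of Wnt5a and Axin2 run nearly parallel.

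Of the 12 receptors and co-receptors, 3 were called in the paired fit (Fzd10 and Fzd5 lower, Fzd2 higher), against 12.6% of all genes (6.04% higher and 6.6% lower). After chromosome medians were removed 2 were called, Fzd10 lower and Fzd7 higher, against 10.7% of all genes, and Fzd5 and Fzd2 were not. None was called without pairing. There 3 receptors had an unadjusted limma p under 0.05, as had 2474 of all 13991 genes. The most abundant in WT cells per length were Fzd7 at 46.6 ± 13.6, Lrp5 at 35.4 ± 7.76 and Fzd10 at 30.2 ± 10.8 CPM per kb, whose ranges over libraries overlapped one another. In Scl-/- cells Fzd7 stood at 63.4 ± 14.6 CPM per kb and Fzd10 at 10.2 ± 2.48, below Lrp5, Fzd2 (16.9 ± 4.26) and Lrp6 (14.7 ± 1.69).

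Fzd10 was at 114, 58.0 and 122.7 CPM in WT and at 40.8, 24.8 and 34.1 CPM in Scl-/- libraries. All Scl-/- libraries were below all WT libraries, and the WT mean was 2.96-fold the Scl-/- mean. Limma gave a log2 fold change of -1.50 (SE 0.31) with an adjusted p of 0.0552 unpaired, and 0.000135 (SE 0.11) paired. Leaving out WT replicate 2 brought Fzd10 past the unpaired threshold (-1.85, adjusted p = 0.0074). With any other library left out it was not called (limma adjusted p of 0.0638 to 0.247). The annotation holds another entry of the same name on the same strand that shares exon sequence with Fzd10, so its reads could have been divided between both entries.

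Fzd2, on chromosome 11, was at 29.4, 40.7 and 48.1 CPM in WT and at 48.1, 57.7 and 78.3 CPM in Scl-/- libraries, where WT replicate 3 reached the level of Scl-/- replicate 1. Its log2 fold change of 0.63 had limma adjusted p of 0.213 unpaired and 0.00114 paired. Fzd5, on chromosome 1, was at 19.02, 19.3 and 18.6 CPM in WT, a narrow spread, and at 10.1, 12.4 and 15.7 CPM in Scl-/- libraries. Its groups did not overlap. The log2 fold change was -0.58, with limma adjusted p of 0.14 unpaired and 0.0166 paired, and without pair 1 (-0.43, adjusted p = 0.0284) or pair 2 (-0.56, adjusted p = 0.114) one of the 2 thresholds was missed.

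Fzd7 was at 165, 294 and 212 CPM in WT and at 229, 318 and 367 CPM in Scl-/- libraries, higher in each pair with overlapping groups. Its log2 fold change of 0.46 fell just under the fold threshold, with a paired adjusted p of 0.0224 in limma. The 9 receptors not called ranged from -0.43 (Fzd8) to 0.46 (Fzd7). For the co-receptors the paired 95% intervals were narrow, -0.20 to 0.06 for Lrp5 and -0.02 to 0.31 for Lrp6.

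Promoter windows, 250 bases before to 50 bases after the start site, were available for 32 of the 49 members (42 windows, RefSeq, GRCm38.p6), and Lgr5, Wnt5a and Fzd2 had no entry. Motifs were searched on both strands. The form bound by TCF/LEF factors, spelled CTTTGAA or as CTTTGAT or else CTTTGTA or finally CTTTGTT, stood in 8 of the 42 windows (19.05%) and in 16.9% of all 32851 windows. An E-box, either CAGCTG or its variant CAGATG, stood in 6 of the 42 (14.3%) against 30.6% of all, and the GATA motif AGATAA in 3 of the 42 (7.14%) against 11.2%. Below are the windows of Fzd10, the called member with an entry that changed most, of Wnt3, the most abundant called ligand per length, and of Axin2, which was called in both fits. Capitals mark these motifs, an E-box at position -240 from the start site in Fzd10 and a TCF/LEF motif at position 18 in Wnt3, and the Axin2 window held none of them.
Fzd10 (chr5:128600856-128601155, plus strand): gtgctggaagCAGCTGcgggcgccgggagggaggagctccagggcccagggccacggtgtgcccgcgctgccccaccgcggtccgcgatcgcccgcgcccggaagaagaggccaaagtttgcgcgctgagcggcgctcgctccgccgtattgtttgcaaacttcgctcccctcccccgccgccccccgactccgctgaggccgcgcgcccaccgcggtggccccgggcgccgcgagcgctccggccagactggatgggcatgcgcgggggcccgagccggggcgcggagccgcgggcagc
Wnt3 (chr11:103773925-103774224, plus strand): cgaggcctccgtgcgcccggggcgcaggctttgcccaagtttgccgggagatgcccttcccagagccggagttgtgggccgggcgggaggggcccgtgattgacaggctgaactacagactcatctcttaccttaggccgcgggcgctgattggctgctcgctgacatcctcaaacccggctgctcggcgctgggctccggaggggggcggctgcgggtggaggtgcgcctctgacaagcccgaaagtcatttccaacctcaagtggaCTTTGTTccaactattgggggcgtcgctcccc
Axin2 (chr11:108920099-108920398, plus strand): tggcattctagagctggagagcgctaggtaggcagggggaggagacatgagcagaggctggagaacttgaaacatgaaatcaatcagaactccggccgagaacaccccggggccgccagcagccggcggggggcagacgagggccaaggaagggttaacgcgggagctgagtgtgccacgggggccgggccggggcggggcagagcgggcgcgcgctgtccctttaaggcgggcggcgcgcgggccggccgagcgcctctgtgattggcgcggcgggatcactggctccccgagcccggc

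The secreted and membrane inhibitors, of which 6 of 13 were analysed here, held no call in either fit. Dkk1, which blocks LRP co-receptors, had the highest mean per length at 13.97 ± 3.62 CPM per kb in WT, with a range that overlapped that of Sfrp2 (11.5 ± 2.18), and was at 32.0, 26.2 and 43.5 CPM in WT and 48.0, 28.5 and 48.1 CPM in Scl-/- libraries. Every pair was higher in Scl-/-, by 0.58, 0.12 and 0.15 on the log2 scale, and the paired adjusted p in limma was 0.0884. Sfrp1, which binds WNT ligands, had the largest log2 fold change of the class, 0.59, and was uneven between libraries, at 3.86, 10.5 and 4.10 CPM in WT and 5.12, 11.02 and 11.04 CPM in Scl-/- cells. Its paired interval ran from 0.07 to 1.10 (limma adjusted p = 0.095). Sfrp2 and Dkk3 had log2 fold changes of 0.06 and 0.04.

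In the R-spondin axis, 5 of 9 genes were analysed here, and Lgr5 was the one called, in both fits. Lgr5, a receptor for R-spondins and itself a known WNT target, was at 104, 54.4 and 84.3 CPM in WT and at 16.3, 5.83 and 6.71 CPM in Scl-/- libraries. The lowest WT library was above the highest Scl-/- library, with means of 80.9 ± 25.0 and 9.61 ± 5.80 CPM (SD, n = 3 each). Limma gave -3.10 (SE 0.39) with an adjusted p of 0.0106 unpaired and 2.1e-05 (SE 0.16) paired. Without WT replicate 1 the unpaired adjusted p was 0.073 at a log2 fold change of -2.90, and with each other library left out it stayed under the threshold, at most 0.0472 (without WT replicate 3). Replicate 1 was the highest for Lgr5 in both genotypes, and the pairs differed by -2.64, -3.12 and -3.56 on the log2 scale. Its paralog Lgr4 was not called, with 58.3 ± 12.6 CPM in WT and 60.5 ± 7.19 CPM in Scl-/- cells and a paired 95% interval of -0.15 to 0.29. The R-spondin Rspo3 was at 96.2, 98.9 and 71.1 CPM in WT and at 90.3, 81.8 and 67.9 CPM in Scl-/- libraries, lower in each pair, with an interval of -0.30 to 0.02. Lgr5 and Rspo3 lie on chromosome 10. Lgr5 was lower than all 20 of its nearest tested genes, whose median was -0.24.

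Of the 8 intracellular transducers, none was called in either fit. Ctnnb1, encoding β-catenin, had the highest level per length of all 49 members, at 137 ± 17.8 CPM per kb in WT and 129 ± 22.4 in Scl-/- cells. It was at 630, 665 and 802 CPM in WT and at 550, 641 and 777 CPM in Scl-/- libraries, so that the replicates of both genotypes kept the same order. The paired interval of its difference was -0.24 to 0.05, and it changed sign when WT replicate 3 (0.0049) or Scl-/- replicate 1 (0.02) was left out of the unpaired fit. Apc, Axin1, Gsk3a and Dvl3 had log2 fold changes between -0.04 and 0.07. Dvl1, Dvl2 and Gsk3b passed the paired adjusted p alone, without the fold threshold, at -0.32 (adjusted p = 0.0369), 0.37 (adjusted p = 0.0191) and -0.25 (adjusted p = 0.0184) in limma. With any fold allowed the paired fit passed 19 members, 11 higher and 8 lower, where 24.2% of all genes passed.

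Of the 3 feedback genes inside the cell, Axin2 and Nkd2 were called higher and Nkd1 went the other way. Axin2, a scaffold of the complex that degrades β-catenin, was at 101, 83.0 and 92.6 CPM in WT and at 224, 197 and 207 CPM in Scl-/- libraries. All Scl-/- libraries were above all WT libraries, and the pairs differed by 1.15, 1.24 and 1.15. The log2 fold change was 1.18 (SE 0.11), with limma adjusted p of 0.0033 unpaired and 2.1e-05 paired, and it was called with each of the 6 libraries left out in turn, but not relative to its neighbours, as given with the chromosome 11 members. Nkd2, which like Nkd1 binds dishevelled and dampens the signal, was at 10.1, 14.6 and 10.8 CPM in WT and at 13.96, 24.3 and 25.3 CPM in Scl-/- libraries. WT replicate 2 lay above Scl-/- replicate 1. Its log2 fold change was 0.78 (limma adjusted p of 0.173 unpaired and 0.00733 paired), and the paired adjusted p was 0.0551 without pair 2. Unpaired, Nkd2 was called only without Scl-/- replicate 1 (1.05, adjusted p = 0.0481). With any other library left out its limma adjusted p was 0.137 to 0.519. Nkd1, the more abundant paralog at 50.9 ± 3.78 CPM per kb in WT, was at 230, 209 and 243 CPM in WT and at 197, 165 and 167 CPM in Scl-/- libraries. These groups did not overlap, and the difference of -0.37 had adjusted p of 0.138 unpaired and 0.00954 paired in limma, under the fold threshold.

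Lef1 was the called member of the 4 TCF/LEF factors. It was at 177, 228 and 144 CPM in WT and at 259, 330 and 236 CPM in Scl-/- libraries, without overlap, and replicate 2 was the highest of both genotypes. The log2 fold change was 0.59 (SE 0.19 unpaired, 0.062 paired), with limma adjusted p of 0.168 and 0.000628. Tcf7, which like Lef1 mostly activates WNT targets and lies on chromosome 11, was the most abundant of the class at 59.6 ± 5.80 CPM per kb in WT and 77.0 ± 11.2 in Scl-/- cells. Its values were 149, 182 and 167 CPM in WT and 180, 241 and 224 CPM in Scl-/- libraries, overlapping by WT replicate 2, with a difference of 0.36 (paired adjusted p = 0.00496 in limma) that missed the fold threshold. Tcf7l1, mainly a repressor, and Tcf7l2 had log2 fold changes of 0.18 and -0.12.

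The 10 members on chromosome 11 were Wnt3, Wnt9b, Fzd2, Axin2, Tcf7, Dvl2, Kremen1, Notum, Rnf43 and Znrf3. Their median log2 fold change was 0.37, and that of all 1211 tested genes of the chromosome was 0.31, with 1048 of the 1211 above 0. In the paired fit 4 of the 10 were called, all higher, while 20.9% of the chromosome's genes were called higher, 4.71% lower and 25.6% in all. After the median of each chromosome had been removed from each library, the median of the 10 members was 0.06 and 2 were called with pairing, Axin2 (0.88, adjusted p = 0.000169) and Wnt3 (0.68, adjusted p = 0.00122). Fzd2 (0.33, adjusted p = 0.043) and Wnt9b (0.49, adjusted p = 0.0852) were not.

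Axin2 was set against its 20 nearest tested genes, whose median difference was 0.94 on the log2 scale with a range from -0.05 to 1.27, and 3 of the 20 were as high as Axin2 or higher. Relative to them its difference was 0.31, with a limma adjusted p of 0.425 unpaired and 0.0339 paired, under the fold threshold. Wnt3 stood above all 20 of its neighbours, which had a median of 0.32 and reached 0.96. Relative to them it was higher by 0.58 (paired 95% interval 0.41 to 0.76). The limma adjusted p of Wnt3 was 0.169 unpaired and 0.0019 paired, so it was called with pairing alone. Wnt9b and Wnt3 lie close together and share most of these neighbours.

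**Figure D4:**
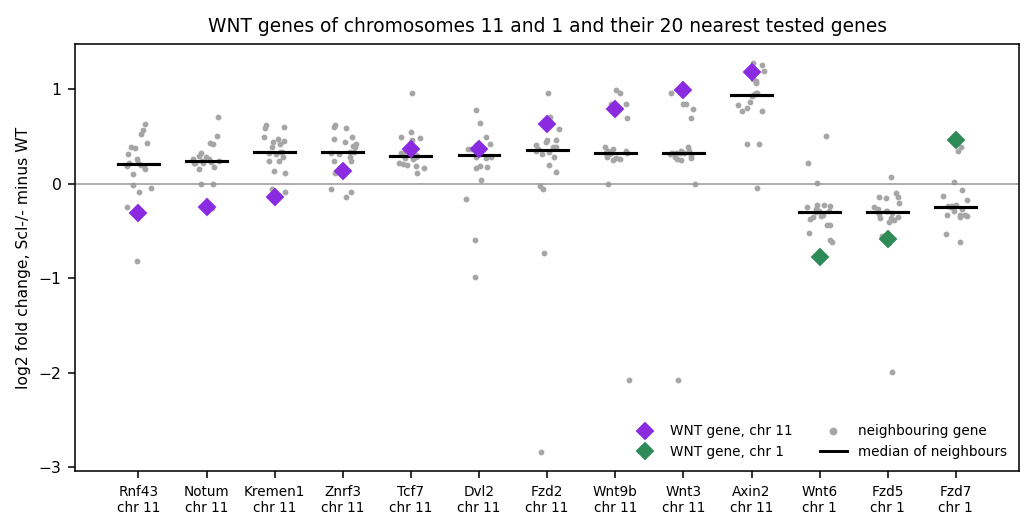
The y axis gives the log2 fold change, Scl-/- minus WT, of each WNT gene of chromosomes 11 and 1 (diamonds) and of its 20 nearest tested genes (grey points, their median as a bar), without a test. Axin2 sits among neighbours with a median of 0.94, Wnt3 above all of its neighbours, and Kremen1 below all of its own.

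Kremen1, Notum, Rnf43 and Znrf3 lay below the chromosome's median, and Dvl2 and Tcf7 close to it. Kremen1, a receptor for DKK proteins, was at 35.3, 31.2 and 34.8 CPM in WT and at 26.8, 31.4 and 33.6 CPM in Scl-/- libraries, with overlapping groups and a log2 fold change of -0.14 (limma adjusted p = 0.648 unpaired, 0.33 paired). All 20 of its neighbours were above it, with a median of 0.34, and relative to them it was called in both fits at -0.52 (adjusted p = 0.0432 unpaired and 0.00277 paired). Notum, which removes the lipid from WNT ligands, was at 5.85, 5.44 and 6.02 CPM in WT and at 6.97, 4.64 and 3.33 CPM in Scl-/- libraries, with Scl-/- replicates on both sides of the WT range and a log2 fold change of -0.25. Rnf43 was at 2.46, 3.53 and 1.87 CPM in WT and at 1.87, 1.64 and 2.43 CPM in Scl-/- libraries, also overlapping, at -0.31. Znrf3 was at 59.0, 53.1 and 31.3 CPM in WT and at 55.0, 61.0 and 39.0 CPM in Scl-/- libraries. Its log2 fold change of 0.14 turned to -0.17 relative to the chromosome and to -0.23 relative to its neighbours, so no direction is given. Dvl2 was at 118, 110 and 141 CPM in WT and at 128, 158 and 196 CPM in Scl-/- libraries, and its difference of 0.37 became 0.06 (adjusted p = 0.494, paired) relative to the chromosome. Tcf7 likewise went from 0.36 to 0.06.

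On chromosome 1, with 681 of 789 tested genes below 0, the members were Wnt6, Fzd5 and Fzd7. In the paired fit 20% of that chromosome's genes were called lower, 1.39% higher and 21.4% in all. Relative to the chromosome Wnt6 was at -0.50 and Fzd5 at -0.30 (paired adjusted p of 0.132 and 0.0986 in limma), and neither was called. Fzd7 instead was called in the paired fit once the chromosome median was removed, at 0.74 (paired 95% interval 0.52 to 0.97, adjusted p = 0.00241). Unpaired it was not called (limma adjusted p = 0.183). Fzd7 was above all of its 20 neighbours, which reached 0.39. The 36 members on other chromosomes had a median of 0.05 and 7 paired calls, Wnt5a, Wnt2b, Nkd2 and Lef1 higher and Lgr5, Fzd10 and Wnt4 lower, before and after the chromosome medians were removed. Of all 11991 tested genes there, 10.7% were called in the paired fit, 4.85% higher and 5.9% lower. With the chromosome medians removed the paired fit called 10 members, 7 higher and 3 lower, against 10.7% of all genes (4.76% higher and 5.9% lower). With neighbour medians removed it also called 10, 6 higher and 4 lower, against 10.7% (4.82% higher and 5.86% lower).

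The replicate number accounted for a somewhat smaller share of the variance among the members than among all genes. For 30 of the 49 (61.2%), the replicate number accounted for more of the variance among the 6 libraries than the genotype, against 67.7% of all tested genes. The median share among the members was 44.6% for the replicate number and 26.4% for the genotype, against 58.4% and 21.3% over all tested genes. In Lrp5 the replicate number accounted for 98.0% and the genotype for 1.52%, while in Lgr5 the shares were 8.75% and 89.9%. Averaged over both genotypes, 24 members were highest in replicate 2, 13 in replicate 1 and 12 in replicate 3. The same count was not made over all genes, so it is not read as a trait of the members. Wnt2b spanned the widest range between replicate numbers, 1.22 on the log2 scale, followed by Sfrp1 at 1.18 and Lgr5 at 1.17. Wnt2b, Sfrp1 and Wnt9b were highest in replicate 2, in which Lgr5 and Fzd10 were lowest.

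The other genes of the pathway showed a similar mixture. Of 67 planar polarity, co-receptor, scaffold and modulator genes looked for, 63 were tested and none was called without pairing. In that limma fit 18 of the 63 had an unadjusted p under 0.05, as had 2474 of all 13991 genes. In the paired fit 15 were called, 6 higher and 9 lower (23.8%, against 12.6% of all genes), and the list's median was 0.07. Frzb, a secreted WNT antagonist of the Sfrp family, was at 22.5, 81.1 and 38.4 CPM in WT and at 47.7, 225 and 168 CPM in Scl-/- libraries, with a log2 fold change of 1.55 and adjusted p of 0.265 unpaired and 0.000722 paired. Each pair was higher in Scl-/-, but WT replicate 2 lay above Scl-/- replicate 1. Dact2, a dishevelled-binding antagonist, was at 13.2, 8.96 and 18.7 CPM in WT and at 5.53, 2.59 and 7.39 CPM in Scl-/- libraries. Tspan12, a partner of Fzd4, was at 39.0, 20.7 and 33.7 CPM in WT and at 18.3, 11.8 and 11.5 CPM in Scl-/- libraries. Both were lower without overlap, at -1.36 and -1.12 (paired limma adjusted p of 0.000401 and 0.00124).

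Of 14 genes of the primitive streak that are known to respond to WNT, all were tested. Without pairing 2 were called (against 2.36% of all genes), Evx1 (0.75, adjusted p = 0.0271) and Mixl1 (1.04, adjusted p = 0.0378), both higher and both without overlap. The homeobox gene Mixl1 was at 181, 228 and 235 CPM in WT and at 345, 437 and 563 CPM in Scl-/- libraries, and Evx1, another homeobox gene of the streak, at 117, 146 and 139 and at 199, 242 and 237 CPM. Evx1 lost this call without WT replicate 1 (adjusted p = 0.142), WT replicate 3 (0.0724), Scl-/- replicate 2 (0.111) or Scl-/- replicate 3 (0.0915), and relative to its neighbours (0.0628). Mixl1 kept it only without Scl-/- replicate 1 (1.21, adjusted p = 0.0282), with adjusted p of 0.0588 to 0.183 when any other library was left out. In the paired fit 9 were called, 7 higher and 2 lower, where 12.6% of all genes were called (6.04% higher and 6.6% lower), and Evx1 and Mixl1 were called with each pair left out. The median of the 14 was 0.36, but 0.69 when Cdx1, under a mean of 2 CPM, was left out, and 0.22 without WT replicate 1. Sp5, a direct WNT target, was at 15.98, 45.8 and 29.7 CPM in WT and at 34.8, 129 and 137 CPM in Scl-/- libraries (log2 fold change 1.59, limma adjusted p = 0.21 unpaired and 0.000775 paired). T was at 203, 261 and 217 CPM in WT and at 319, 441 and 382 CPM in Scl-/- libraries, without overlap, and was higher by 0.74 (adjusted p = 0.0534 unpaired and 0.000183 paired). Tbx6, a T-box gene of paraxial mesoderm, was higher by 0.90 (paired limma adjusted p = 0.00372) with overlapping groups. The caudal homeobox genes Cdx2 and Cdx4 were called lower in the paired fit, at -0.60 and -0.58 (adjusted p = 0.0142 and 0.0269), and Ccnd1 and Msx2 had log2 fold changes of 0.02 each. The list was chosen with results of these libraries known, and Mixl1 and T are also among the FLK1+ mesoderm markers given above.

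**Figure D5:**
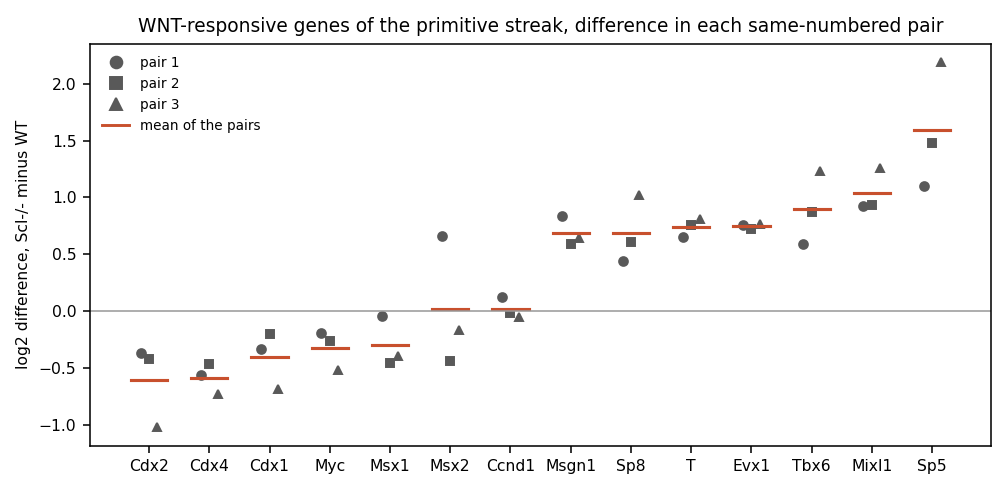
The y axis gives the log2 difference, Scl-/- minus WT, in each pair of same-numbered libraries (circle, square and triangle for pairs 1 to 3) and their mean (bar) for 14 WNT-responsive streak genes. Evx1 and T have 3 nearly equal pairs, whereas Sp5 and Tbx6 spread widely and the Cdx genes lie below 0.

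Exons of 11 of the 49 members overlap another annotated gene in mm9, among them the called members Fzd10, Wnt5a and Axin2. Dvl2, Ctnnb1 and Notum, also given in each library, are among them too. Dvl2 overlaps Mir324 on the same strand and Acadvl on the other strand. Ctnnb1 overlaps Ulk4, and Notum overlaps 4732444A12Rik and Gm11768, all on the other strand. For Wnt5a (chr14:29317936-29340633, plus strand) and Axin2 (chr11:108781663-108812097, plus strand) the overlapping genes are predicted transcripts on the other strand. Whether reads were counted by strand is not given in the sources used here, so reads of such a pair cannot be told apart. Lgr5 (chr10:114887367-115024836, minus strand) and Wnt3 (chr11:103635464-103679271, plus strand) have no such overlap.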

How the data were processed

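RNA-seq was measured in 6 libraries, 3 WT and 3 Scl-/-, grouped by the labelled genotype. The authors aligned reads to mm9 with TopHat2 2.0.8b, removed duplicate read pairs, kept mapping quality over 15 with SAMtools 0.1.19, normalised by TMM in edgeR and deposited CPM values. The counting tool and annotation are not given in the sources used here. Removing duplicates can limit highly expressed genes.

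Here, genes with at least 0.5 CPM in 3 libraries (13991 of 14005) were tested on log2(CPM + 0.5) with limma 3.58.1 in R 4.3.3 (lmFit, eBayes with trend), genotype as the only term, p adjusted by the Benjamini-Hochberg method over all genes tested. The replicate block was added as an alternative. The series' design gives 3 independent differentiations, both genotypes are numbered 1 to 3, and deviations of same-numbered libraries correlated at 0.587 to 0.756, against -0.621 to -0.0996 for different numbers. Deviations were taken from the mean of the 3 libraries of a genotype. Positive correlations of same numbers therefore push those of different numbers below 0, and the latter add no separate support. The fits were also run on simulated data, with and without a replicate effect. These data held no chromosome-wide or regional differences, so that run does not bear on such differences here. For neighbour values, the median deviation of the 20 nearest tested genes was removed from each library. This was chosen after the values were seen. Positions are those of GENCODE for mm9, and promoters are from RefSeq.

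Members and gene lists were chosen with earlier results of these data known. Values in each library are given for members called with or without the block, chromosome 11 members, the most abundant member of each role and, where no member of a role was called, the one that changed most. For the other lists they are given for genes called without the block, or else the 3 called with the block that changed most. T, Tbx6 and the other streak genes named were chosen after their values were seen. Other settings tried were pseudocounts of 0.1 and 1, no filter or a mean of 2 CPM, median-ratio rescaling, no trend, chromosome medians removed, and leaving out each library or pair. Whole reads could be worked out from the CPM steps, but too few low values were listed for a count model.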

Additional observations from a re-analysis of the deposited data

How the results depend on the processing

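Against 2 members called with genotype as the only term, the replicate block gave 13, and it also gave 13 with a pseudocount of 0.1 or 1, with no filter, when a mean of 2 CPM was required, or after median-ratio rescaling, 12 without the intensity trend, 19 without the fold threshold, and 10 after chromosome or neighbour medians were removed. The 10 chromosome 11 members had 1 call, 4 with the block, and 2 with the block after chromosome or neighbour medians were removed, and their median of 0.37 was 0.062 and 0.082 under these removals, with or without the block. The number of roles with a call was 2, and 5, 5 and 6 with the block alone, with chromosome medians and with neighbour medians removed. Other pathway genes went from 0 calls to 15, 15 and 14, and streak genes from 2 to 9, 9 and 9, under the same 3 paired settings. Streak calls numbered 1 without the trend or with neighbour medians removed and no block, and their median was 0.69 when a mean of 2 CPM was required and 0.55 with neighbour medians removed. Leaving out 1 library gave 1 to 5 members called, 1 to 2 on chromosome 11, 0 to 1 other pathway genes and 0 to 4 streak genes (medians 0.324 to 0.506 on chromosome 11 and 0.217 to 0.42 for streak genes), and leaving out a pair 9 to 15 members with the block. The sign turned for Znrf3 at -0.17 with chromosome and -0.23 with neighbour medians removed, with or without the block, and at -0.14 without WT replicate 3 (-0.14 to 0.32 over libraries left out), and for Ctnnb1 at 0.0049 without WT replicate 3 and 0.022 without Scl-/- replicate 1. The cause was not tested. With 3 libraries of 1 line per genotype, p-values cover the spread between differentiations only.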
